A study of Mus musculus with 16 samples.

Results

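The genes described here are 58 protein-coding genes of innate immune and NF-kB signalling, taken by name from the pathway that runs from the Toll-like receptors to NF-kB, its target cytokines and chemokines, the inflammasome, the interferon response and JAK-STAT3 signalling. They are 58 of the 21770 protein-coding genes of the gene models used. Each was looked up in the lists of N6-methyladenosine (m6A) peaks by its exons on its own strand, and 41 of the 58 had a peak in at least 1 list. They carried 543 of the 169564 peaks in the lists, which joined into 167 of the 52776 stretches of transcript that were listed in any library.

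The study followed m6A in mouse brain after transient ischaemia by methylated RNA immunoprecipitation sequencing (MeRIP-seq), in which RNA fragments are pulled down with an antibody against m6A and a stretch with more pull-down (IP) than input reads is called as a peak. Male C57BL/6J mice aged 6 to 8 weeks had the right middle cerebral artery blocked by a nylon thread for 2 h (MCAO) under avertin anaesthesia, and the thread was withdrawn to let blood return (MCAO/R). Cortex around the infarct was taken at once after the thread was withdrawn (MCAO/R-0 h, below also 0 h), after 6 h of reperfusion (MCAO/R-6 h) or after 24 h (MCAO/R-24 h), and Sham mice had surgery in which no thread was inserted. Each of the 4 groups had 2 IP libraries with 1 peak list each. Surgery groups were of 6 mice. Whether a library came from 1 animal or a pool, and whether the replicates came from separate animals, is not given in the sources used here, so the spread between replicates may be technical. RNA abundance was not analysed here. In a piece of tissue a listed or missing peak can follow the methylation of an RNA, the amount of RNA per cell or the number of cells that make it, and these cannot be told apart.

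Toll-like receptors recognise microbial molecules and molecules released by damaged cells, and pass the signal through the adaptors MyD88 and TRIF to IRAK kinases and TRAF ubiquitin ligases. These activate the kinase TAK1 with its partners TAB2 and TAB3, and then the IKK complex, which removes the IkB inhibitors from NF-kB. In the ischaemic brain this pathway is best known from microglia, endothelium and astrocytes and from infiltrating blood cells. m6A is placed on many mRNAs, mostly near the stop codon and in long exons, within the RRACH motif, and it is known to affect how long an mRNA lasts and how well it is translated.

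Peaks were listed on most receptors and most proteins that pass the signal on, and on few of the secreted products. All 5 Toll-like receptors (Tlr2, Tlr3, Tlr4, Tlr7 and Tlr9), 10 of the 11 adaptors and kinases and all 3 IKK subunits had a peak in at least 1 list. So did all 4 genes grouped here as inhibitors of NF-kB and all 5 cytokine receptors. The same held for 1 of 4 cytokines, 1 of 6 chemokines, 0 of 3 inflammasome genes and 2 of 5 NF-kB subunits. The 17 genes that were listed in no library were Myd88, Nfkb2, Rela, Relb, Tnf, Il1a, Il6, Ccl3, Ccl4, Cxcl1, Cxcl2, Cxcl10, Nlrp3, Casp1, Pycard, Irf7 and Irf8. The 12 genes listed in all 8 libraries were Tlr3, Irak2, Traf3, Traf6, Tab2, Tab3, Map3k7, Il6ra, Il6st, Ifnar1, Jak1 and Jak2. Among all protein-coding genes 52.9% were listed at least once and 18.8% in all 8 lists, against 70.7% and 20.7% of the 58 genes.

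Gene length moved with this split. The median exonic length was 4594 nt for the 41 genes with a peak and 2428 nt for the 17 without, and over all protein-coding genes it was 4222 nt with and 2141 nt without a peak. Of the 16 genes between 5000 and 8000 nt 14 were listed, where 79.5% of all protein-coding genes of that length were. Of the 23 between 3000 and 5000 nt, the largest class, 18 were listed, beside 63.3%. Of the 4 genes under 1000 nt 1 was listed, where 9.21% of all such genes were. Some unlisted genes were long, such as Nfkb2 (7233 nt) and Irf8 (5661 nt), and the 3 inflammasome genes had a median of 4057 nt. The part of gene length in the split between receptors and secreted products was not tested.

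**Figure D1:**
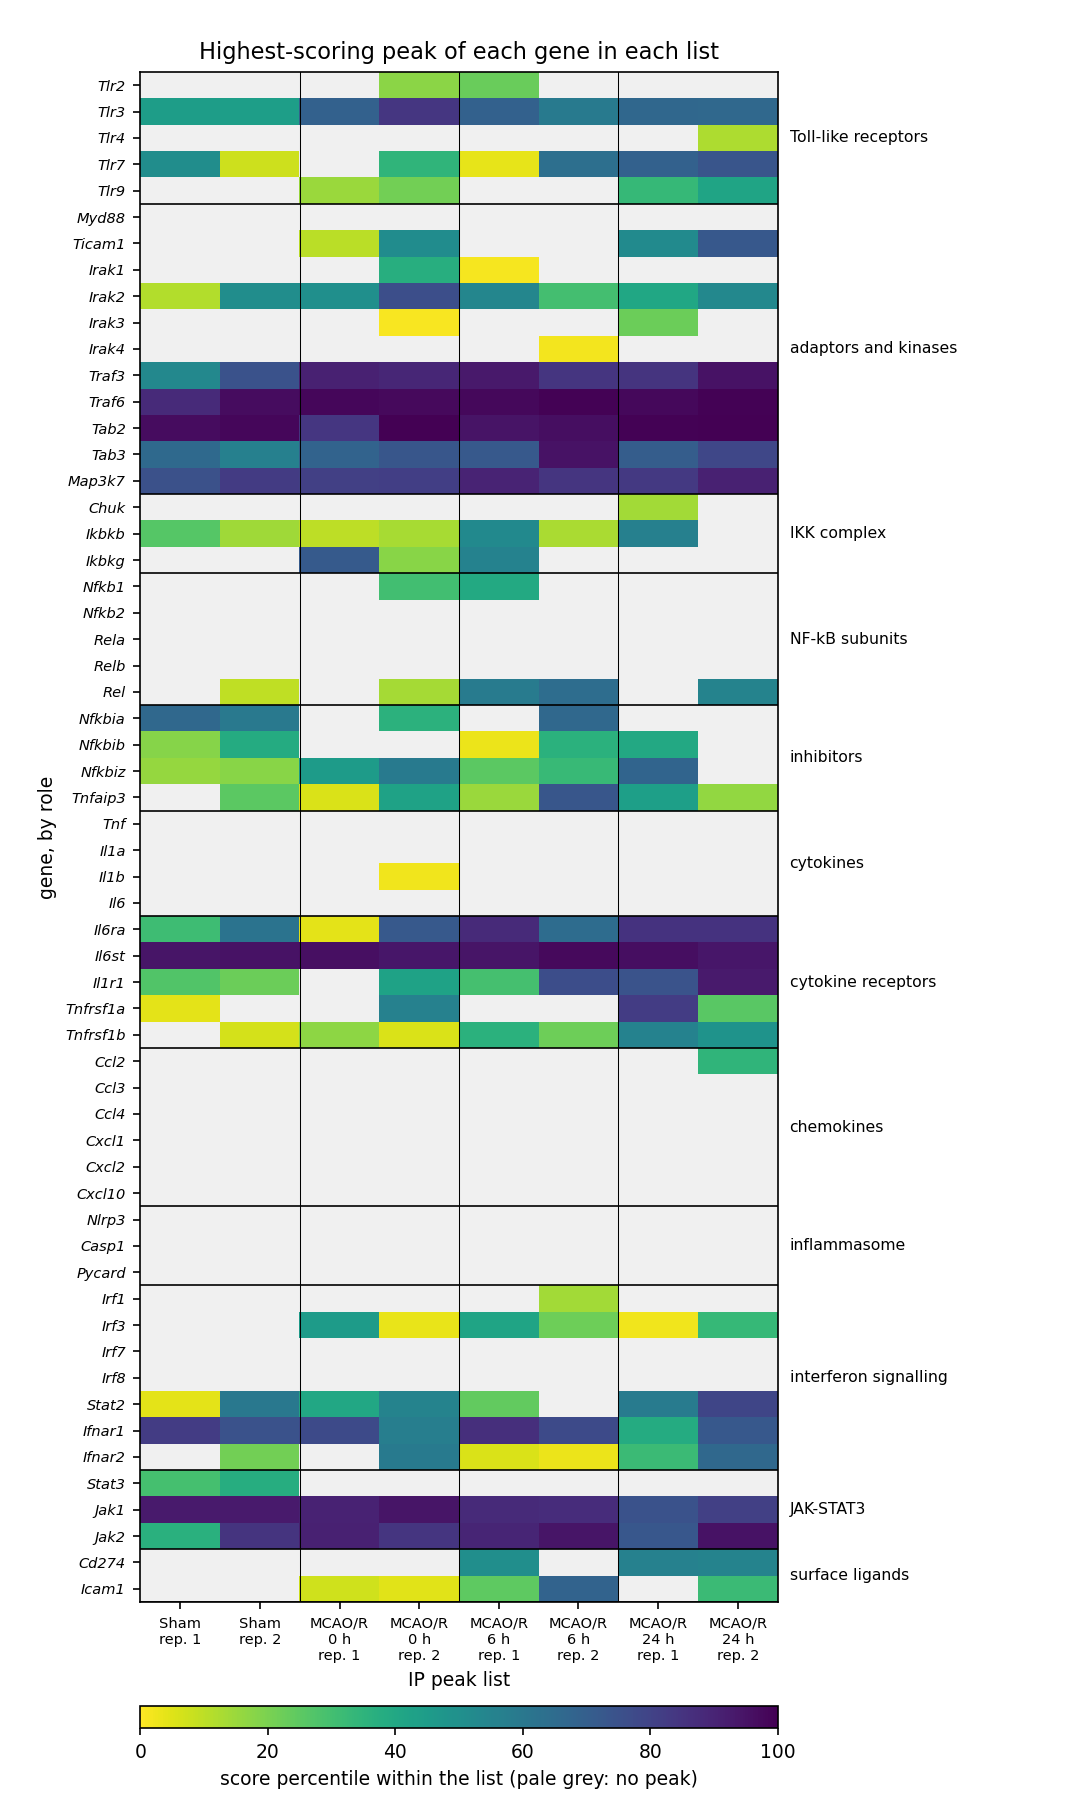
Score percentile of the highest-scoring peak of each of the 58 genes (rows, grouped by role) in each of the 8 IP peak lists (columns), with pale grey where a gene has no peak. Tab2, Traf6, Il6st and Jak1 are dark in the Sham and MCAO/R lists alike, and the cytokine, chemokine and inflammasome rows are almost empty.

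Sequences are shown for regions that the results below turn on, some found in most lists and some gained after MCAO/R. Coordinates are on GRCm39 and all sequences are read 5′ to 3′ on the transcript strand from that genome. The 4 coding windows of 100 nt lie at the middle of the part of a region that the most lists share, and capitals mark RRACH sites (A or G, A or G, then AC, then A, C or T). The window of Traf6 region 1 (chr2:101527657-101527756, + strand) was under a peak in all 8 lists, and those of Tlr3 region 1 (chr8:45850539-45850638, - strand) and Tab2 region 3 (chr10:7795864-7795963, - strand) in 7. Tlr7 region 2 had a peak in the MCAO/R-24 h lists alone. The part that both of these lists share (chrX:166089875-166089949) is shorter than the window shown (chrX:166089862-166089961, - strand). The first and last RRACH sites marked in that window lie outside the shared part, and the last lies outside the region.
Traf6 region 1: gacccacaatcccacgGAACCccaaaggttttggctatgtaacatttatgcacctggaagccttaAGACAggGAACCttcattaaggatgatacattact
Tlr3 region 1: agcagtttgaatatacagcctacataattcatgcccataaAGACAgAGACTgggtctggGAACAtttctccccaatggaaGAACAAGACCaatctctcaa
Tab2 region 3: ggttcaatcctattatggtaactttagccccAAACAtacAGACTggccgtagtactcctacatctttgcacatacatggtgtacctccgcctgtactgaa
Tlr7 region 2: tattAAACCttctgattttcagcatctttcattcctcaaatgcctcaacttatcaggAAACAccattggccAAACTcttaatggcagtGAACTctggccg

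For regions in 3′ UTRs, 25 nt around a GGACT, the best known form of the motif, are shown with GGACT in capitals. They lie in Il6st region 1 (chr13:112640971-112640995, + strand, site within a peak in 8 lists), Il6st region 3 (chr13:112642239-112642263, + strand, 5 lists), Ifnar2 region 1 (chr16:91201389-91201413, + strand, 4 lists), Jak1 region 1 (chr4:101010325-101010349, - strand, 5 lists), Il1r1 region 1 (chr1:40352693-40352717, + strand, 3 lists) and Icam1 region 1 (chr9:20939394-20939418, + strand, 3 lists).
Il6st region 1: ccgcagtgaaGGACTggctcctgaa
Il6st region 3: acacgacttaGGACTatcttaaacc
Ifnar2 region 1: tgtcatggagGGACTagagaactct
Jak1 region 1: aaaaacttgtGGACTtggctgacac
Il1r1 region 1: gaagagaacaGGACTtggtggccag
Icam1 region 1: agagctaagaGGACTcggtggatgg

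Of their 84 windows of 100 nt from regions in at least 2 lists, 12 (14.3%) held GGACT and 70 (83.3%) held RRACH on the transcript strand, while 14.3% and 84.1% of all 24155 such windows did. For regions in all 8 lists, 0 of 11 windows of these genes held GGACT, against 15.7% of all such windows. Outside its window, region 1 of Tlr3, Traf6, Il6st and Jak1 did hold GGACT, so the 0 concerns the windows and not the whole regions. GGACT is itself one of the RRACH words. A match is a description of the letters and does not show that the site was methylated.

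The Sham lists held a peak on 21 and 24 of the 58 genes, the 0 h lists on 22 and 33, the 6 h lists on 29 and 26, and the 24 h lists on 28 and 27. The MCAO/R means were all 27.5 (SD 7.78, 2.12 and 0.707 in time order, n = 2 lists each), against 22.5 ± 2.12 (SD, n = 2) in Sham. MCAO/R-0 h replicate 1 lay between the 2 Sham lists, and the other 5 MCAO/R lists lay above both. In percent of the set this was 38.8% in Sham and 47.4% at each time, where the share over all protein-coding genes went from 31.8% to 35.0%, 36.0% and 33.9%. No test was run on these counts. The lists themselves differed in length, from 18775 peaks in Sham replicate 1 to 24078 in MCAO/R-0 h replicate 2, and with every list cut to the length of the shortest by score the genes in both lists of a group, 20 in Sham and 22, 23 and 23 at 0, 6 and 24 h over the full lists, were 20 in Sham and 15, 18 and 23. At equal length the counts at 0 h and 6 h were thus below that in Sham. The lists give no reads per peak, and library depth is therefore unknown. Of markers of other cells in the tissue, 0 of 8 blood leukocyte genes had a peak in any list, 2 to 5 of 7 microglial genes had one per list, and 4 of 7 neuronal, 4 of 5 astrocytic and 4 of 5 endothelial genes had one in at least 1 list. A missing peak does not show that the RNA was absent. For the markers that define these cells, S100a8, Ptprc and Ccr2 among the leukocyte genes were listed in no library.

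**Figure D2:**
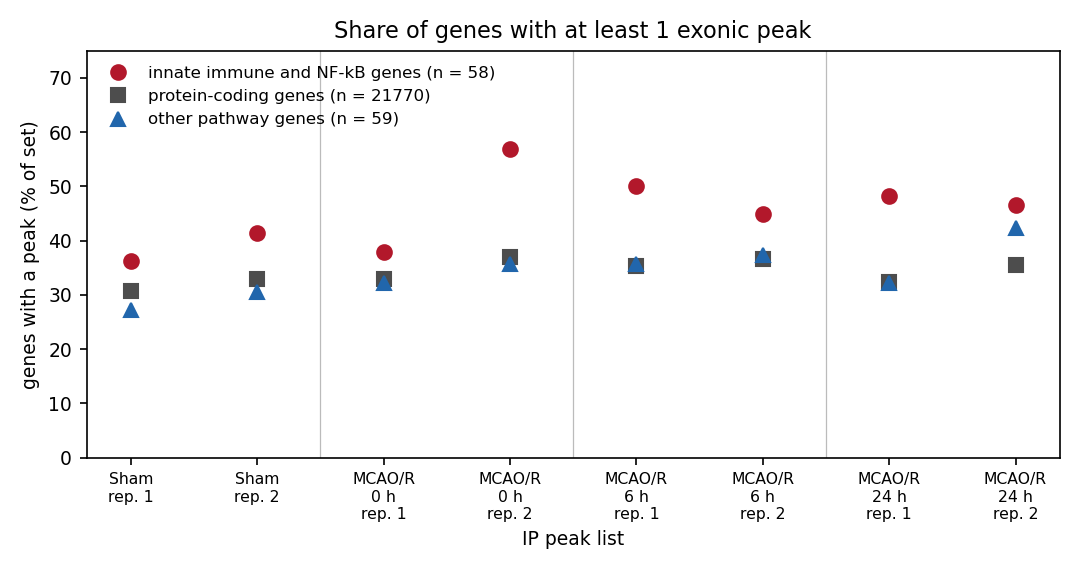
Percent of genes with at least 1 exonic peak in each of the 8 IP lists, for the 58 innate immune and NF-kB genes (circles), all 21770 protein-coding genes (squares) and 59 other genes of the same pathways (triangles). The 58 genes run from 36.2% in Sham replicate 1 to 56.9% in MCAO/R-0 h replicate 2 and lie above the protein-coding share in every list.

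Among the Toll-like receptors, Tlr3, the receptor for double-stranded RNA, was the one listed in all 8 libraries. The score of a peak has no stated scale, so it is given as the percent of peaks in the same list that score lower. Tlr3 region 1 (chr8:45850407-45850926), in the coding sequence, stood at percentile 44.4 and 4.98 in Sham, 68.8 and 84.1 at 0 h, 69.0 and 59.3 at 6 h and 58.6 and 60.9 at 24 h. Every MCAO/R list was above both Sham lists. The Sham replicate 2 peak (chr8:45850802-45850926) shared no base with the Sham replicate 1 peak (chr8:45850477-45850676) and was joined to the others through the longer peak of MCAO/R-0 h replicate 2, so that it stands for another site and the stretch shown above had no peak in Sham replicate 2. Tlr3 region 3 (chr8:45851502-45851826), further upstream in the coding sequence, was listed at 1.12 and 29.1 at 6 h and at 41.5 and 24.97 at 24 h, and in no Sham or 0 h list.

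Tlr7, an endosomal receptor for single-stranded RNA, had its best peak in region 1 (chrX:166088500-166088899), also in the coding sequence. It stood at 50.8 and 7.62 in Sham, was absent from both 0 h lists, was listed in MCAO/R-6 h replicate 2 at 31.9, and stood at 69.1 and 73.5 at 24 h. At 24 h both lists were thus above both Sham lists. The same order held for 25% of the regions in all 8 lists, to which this region does not belong. Tlr7 region 2, whose sequence is given above, was listed at 11.2 and 16.4 in the 24 h lists. Tlr9, the receptor for unmethylated CpG DNA, had a peak in both lists of 0 h (14.9 and 21.3) and of 24 h (32.9 and 41.4) and in none of the other 4. Its peaks at 0 h did not share an exonic base, whereas those at 24 h did, in region 1 at the start of the transcript. Tlr2 had a peak in 2 lists and Tlr4, the receptor for lipopolysaccharide, in MCAO/R-24 h replicate 2 alone.

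The proteins just below the receptors carried the highest-scoring peaks of the set. Traf6, a ubiquitin ligase shared by the MyD88 and interleukin-1 routes, had region 1 (chr2:101524602-101528131) that spans the stop codon, at percentile 88.0 and 96.7 in Sham, 98.3 and 97.5 at 0 h, 97.7 and 99.4 at 6 h and 98.0 and 99.5 at 24 h. Traf3, which feeds the interferon branch, had region 1 (chr12:111228063-111228937) across the stop codon at 53.3 and 74.8 in Sham and between 84.7 and 95.2 in the 6 MCAO/R lists. For both genes the 2 Sham lists were the lowest of the 8. Tab2 region 3 (chr10:7794889-7796378), in the coding sequence, stood at 96.8 and 98.4 in Sham, was missing from MCAO/R-0 h replicate 1, and lay between 94.6 and 99.9 in the other 5 lists. Tab2, with 61 peaks, was the most heavily listed of the 58 genes.

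Map3k7, which encodes TAK1, had region 1 (chr4:32017122-32019844) across the stop codon at 75.3 and 82.7 in Sham and between 81.1 and 90.7 after MCAO/R. Further stretches near the end of its long 3′ UTR, regions 3 and 4, were in both 0 h lists (29.9 and 53.7, and 58.6 and 64.5) and neither Sham list. Each was also in MCAO/R-6 h replicate 1 and MCAO/R-24 h replicate 2. Tab3, the X-linked partner of TAB2, had region 1 at 65.7 and 56.4 in Sham and between 66.0 and 95.3 after MCAO/R, so that the lowest MCAO/R list lay just above the higher Sham list. Its best Sham peaks lay at different places, at chrX:84658027-84658251 in replicate 1 and chrX:84658527-84658726 in replicate 2. Irak2 was in every list, but neither of its 2 main regions was. Ticam1, which encodes TRIF, was in no Sham or 6 h list, in both 0 h lists (10.5 and 51.5) and in both 24 h lists (52.3 and 72.3). The 0 h value of 51.5 was that of a peak in the 5′ UTR in replicate 2 alone. Ticam1 region 1, in the coding sequence, was in both 0 h lists, at 10.5 and 18.2. The peaks of Ticam1 at 24 h lay at different places in the coding sequence in the 2 lists. Irak1, Irak3 and Irak4 had a peak in 1 or 2 lists.

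The IKK complex and NF-kB itself were sparsely listed. Ikbkb, the kinase subunit IKKb, had a peak in 7 lists but no region in more than 3. Its region 2 was in both Sham lists (26.4 and 14.3) and, of the MCAO/R lists, in MCAO/R-6 h replicate 2 alone (1.45). Ikbkg, the regulatory subunit NEMO, was in both 0 h lists, at different places (71.5 and 18.0), and in MCAO/R-6 h replicate 1 (55.7). Chuk, the subunit IKKa, was in MCAO/R-24 h replicate 1 alone. Of the NF-kB subunits Rel was in 5 lists, in coding sequence and, at 6 h, also in the 5′ UTR, and Nfkb1 was in 2, in coding sequence.

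Of the 4 genes grouped here as inhibitors of NF-kB, Nfkbia and Nfkbib were each lost at 1 time. Nfkbia, which encodes IkBa and is itself an NF-kB target, had 1 region in its 3′ UTR (chr12:55536545-55536719). It was listed at 66.1 and 59.6 in Sham, in replicate 2 alone at 0 h (35.9) and 6 h (66.3), and in neither list of 24 h. Nfkbib, the inhibitor IkBb, was in both Sham lists, at 18.2 and 38.3 and with no base shared between them, and neither 0 h list, and was in both 6 h lists and MCAO/R-24 h replicate 1. Nfkbiz, a nuclear IkB protein, was in every list but MCAO/R-24 h replicate 2, and Tnfaip3, the ubiquitin editor A20, in every list but Sham replicate 1. Tnfaip3 region 2, in the coding sequence, was in both 6 h lists (13.1 and 39.3) and neither Sham list.

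The secreted ligands had few peaks, and their receptors had many. Il1b, the interleukin-1 beta cytokine, was listed in MCAO/R-0 h replicate 2 alone, at percentile 2.19, and Ccl2, the monocyte chemokine, in MCAO/R-24 h replicate 2 alone, at 34.7. Il6st, which encodes the shared receptor chain gp130, had 57 peaks, and its region 1 (chr13:112640672-112641371) across the stop codon varied least of those described, from 93.8 to 97.5 over the 8 lists. Il6st region 3 (chr13:112642147-112642346), in the 3′ UTR with its best peak 1307 nt past the stop codon, was listed at 45.8 and 29.6 at 0 h, 49.0 and 4.41 at 6 h and 24.0 and 17.3 at 24 h, and in neither Sham list. Il6st region 8, a stretch of 75 nt in the coding sequence, was at 35.5 and 36.2 in Sham and in none of the 6 MCAO/R lists.

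Il1r1, the signalling receptor for interleukin-1, had region 1 (chr1:40349578-40352904) across the stop codon at 27.2 and 22.6 in Sham. At 0 h and 6 h it was in replicate 2 alone, at 42.3 and 76.2, and at 24 h it stood at 74.4 and 92.9. The best peaks of the lists lay at different places in this wide region, and in the 3′ UTR stretch that both Sham and both 24 h lists share the values were 27.2 and 10.8 in Sham and 74.4 and 55.4 at 24 h. Il6ra, the ligand-binding chain of the interleukin-6 receptor, had region 1 (chr3:89777341-89777740) in its 3′ UTR at 31.2 and 61.8 in Sham, 72.1 in 1 of the 0 h lists, 88.0 and 64.6 at 6 h and 85.5 and 85.3 at 24 h. For both genes the 24 h lists were above the Sham lists. Of the regions in all 8 lists, which do not include these, 25% also ranked above both Sham lists at 24 h. Each gained a second stretch at 24 h, Il1r1 region 3 in the 3′ UTR (11.7 and 53.0) and Il6ra region 5 in the coding sequence (23.9 and 46.0), neither of which was in a Sham list. Of the receptors for TNF, Tnfrsf1b was in 7 lists and Tnfrsf1a in 4.

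In the interferon and JAK-STAT3 branches the genes in all 8 lists were a receptor chain and the kinases. Irf3, the transcription factor activated below TRIF, was the 1 gene of the set with a peak in all 6 MCAO/R lists and neither Sham list, a pattern that 71 protein-coding genes (0.617% of the 11509 with a peak in any list) shared. Its percentiles were low to middling, from 2.31 to 45.0, and its 6 peaks lay in 3 places. Irf3 region 1, in exonic sequence outside the coding and untranslated parts of the protein-coding transcripts used, held 4 of them. Ifnar2, a chain of the type I interferon receptor, had region 1 in the 3′ UTR in both lists of 6 h (5.48 and 2.81) and of 24 h (31.9 and 58.7) and in MCAO/R-0 h replicate 2 (55.4). A further peak of 75 nt on an exon of Ifnar2, in 3 lists, was given to the overlapping gene Gm21970. Ifnar1, the other chain, had region 1 in all 8 lists, between 36.9 and 86.4, with Sham and MCAO/R interleaved. Stat2 was in 7 lists and Irf1 in 1.

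Jak1, a kinase bound to gp130 and the interferon receptors, had region 1 (chr4:101010189-101010613) in the 3′ UTR at 92.7 and 92.9 in Sham, 90.4 and 94.3 at 0 h, 88.2 and 87.3 at 6 h and 74.9 and 81.0 at 24 h. Of the regions of these genes in all 8 lists, it was the one whose 6 h and 24 h lists lay below both Sham lists. Jak2, another kinase bound to gp130, had regions 1 and 2 in every list, with Sham replicates far apart (36.7 and 84.9 in region 1). Stat3, the transcription factor these kinases activate, had 1 peak in each Sham list, at 29.3 and 37.7 and at different places in the coding sequence, and none after MCAO/R. In all, 92 protein-coding genes (0.799% of those listed) were in both Sham lists and at most 1 MCAO/R list. Of the surface ligands, Icam1, the endothelial adhesion molecule for leukocytes, had 1 region across the stop codon at 7.05 and 4.48 at 0 h, 24.6 and 68.3 at 6 h, 31.9 in MCAO/R-24 h replicate 2, and in no Sham list. Cd274, which encodes PD-L1, was listed in MCAO/R-6 h replicate 1 and both 24 h lists and in no Sham or 0 h list.

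**Figure D3:**
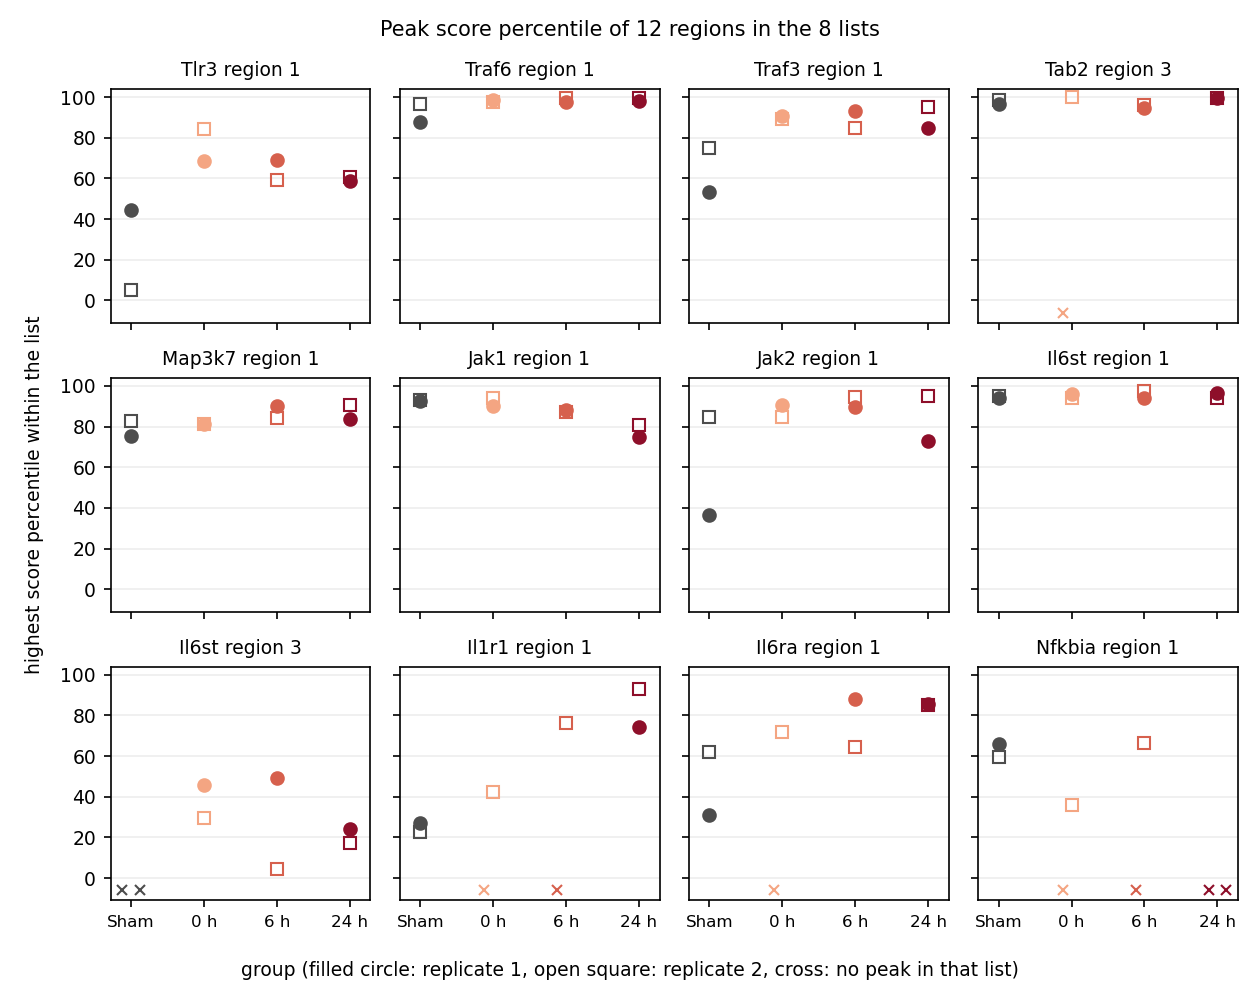
Score percentile within its list of the highest-scoring peak of 12 regions, by group, with filled circles for replicate 1, open squares for replicate 2 and crosses for a list without a peak there. Tlr3, Traf6 and Traf3 region 1 have their 2 Sham lists lowest, Jak1 region 1 lies lower in MCAO/R-24 h (74.9 and 81.0) than in Sham (92.7 and 92.9), and Nfkbia region 1 has no peak in MCAO/R-24 h.

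Calling a gene gained when both lists of a time and neither Sham list had a peak on it, 5 of the 41 listed genes were gained at MCAO/R-0 h (Tlr9, Ticam1, Ikbkg, Irf3 and Icam1), beside 3.64% of all 11509 listed protein-coding genes. At MCAO/R-6 h 2 were gained (Irf3 and Icam1), beside 4.8%, and at MCAO/R-24 h 4 (Tlr9, Ticam1, Irf3 and Cd274), beside 3.98%. Lost genes, with the reverse pattern, were 2 at MCAO/R-0 h (Nfkbib and Stat3), 1 at MCAO/R-6 h (Stat3) and 2 at MCAO/R-24 h (Nfkbia and Stat3), beside 1.41%, 1.56% and 2.18%. In percent of the 41 genes the gains were 12.2%, 4.88% and 9.76%, and the losses 4.88%, 2.44% and 4.88%. The gained share at 6 h was thus at the background, and those at 0 h and 24 h rest on 5 and 4 genes. The 3 comparisons use the same 2 Sham lists. With lists of equal length 1, 3 and 5 genes were gained at 0, 6 and 24 h. The share over all genes is not given here for that setting or for those with a list left out. These counts therefore have no background beside them. With a list left out a group rests on 1 list, which by construction can only add calls, and the gains became 10 genes at 0 h without replicate 1, 7 at 6 h and 7 at 24 h without replicate 2 and replicate 1 of that time, and 6 and 7 at 6 h and 24 h without Sham replicate 2.

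Of the 167 regions 6, 8 and 8 were gained at 0, 6 and 24 h, beside 2.61%, 3.43% and 2.53% of all 52776 regions, and 3, 1 and 4 were lost, beside 1.27%, 1.41% and 1.84%. The gains at 0 h were in Ticam1, Tab2, Map3k7 (2 regions), Il6st and Icam1. Those at 6 h were in Tlr3, Tab2, Tnfaip3, Il6st, Irf3, Ifnar1, Ifnar2 and Icam1, and those at 24 h in Tlr3, Tlr7, Tlr9, Il6ra, Il6st, Il1r1, Ifnar2 and Cd274. The losses were in Tlr7, Ikbkb and Il6st at 0 h, in Il6st at 6 h, and in Tab2, Ikbkb, Nfkbia and Il6st at 24 h. Il6st region 3 was gained and Il6st region 8 lost at all 3 times. Of all regions, 138 (0.261%) were in all 6 MCAO/R lists and neither Sham list. A further 518 (0.982%), with Il6st region 8 and Ikbkb region 2 among them, were in both Sham lists and at most 1 MCAO/R list. With a list left out the gains rose to as many as 40, 36 and 33 regions (without MCAO/R-0 h replicate 1, MCAO/R-6 h replicate 2 and MCAO/R-24 h replicate 1) and the losses to as many as 15, 11 and 12 (without Sham replicate 1). By construction the looser rule can only add calls, over all regions as well. The share of all regions under it is not given here, so the shares above are no background for these counts. A region in 1 list only cannot be called, and 82 of the 167 (49.1%) were in 1 list only and 11 (6.59%) in all 8, against 52.6% and 8.97% of all regions.

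**Figure D4:**
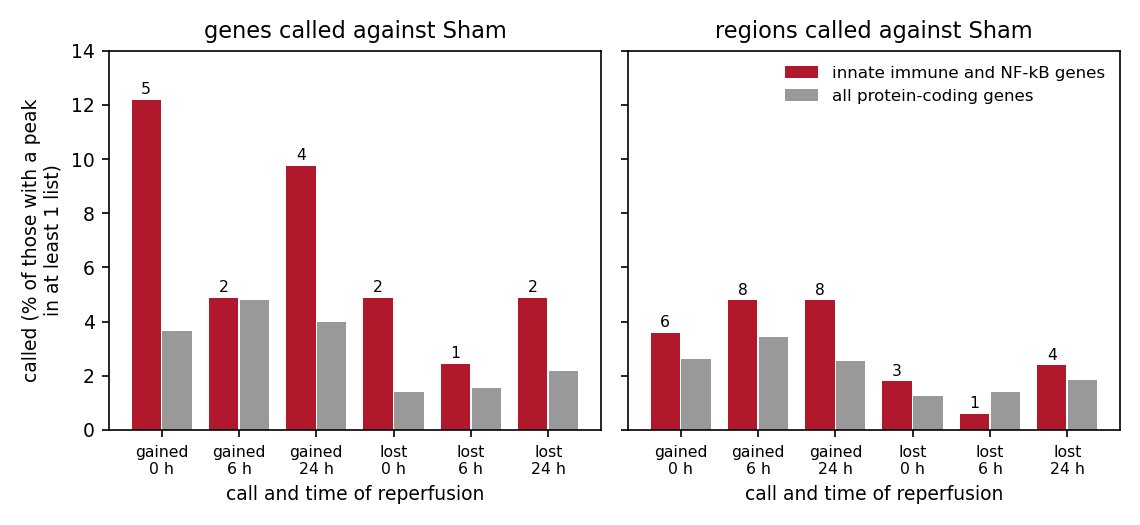
Percent of listed genes (left) and regions (right) called gained or lost at each reperfusion time against Sham, for the 58 innate immune and NF-kB genes (red, with the number called above each bar). Grey bars give all listed protein-coding genes (left) and all 52776 regions, in genes of any type or none (right). The gene bars for gains at 0 h (12.2%) and 24 h (9.76%) stand above the grey ones (3.64% and 3.98%), and those at 6 h are level.

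Where a region was in every list, the rank of its score could be tested. The within-list rank was turned into a normal score (the standard normal quantile of the rank) and limma was fitted to all 4735 regions found in all 8 lists, 11 of them in 9 of these genes. At an adjusted p of 0.05 limma called 0 regions at 0 h (0% called), 0 at 6 h (0%) and 0 at 24 h (0%), while 315, 442 and 382 of the 4735 had an unadjusted p under 0.05, among them 2, 2 and 4 of the 11. In 4 of the 11 regions (Tlr3, Traf3, Traf6 and Tab3 region 1) all 6 MCAO/R lists ranked above both Sham lists, as did 6.84% of all regions tested, and 0 of the 11 had all 6 below, beside 2.43%. By time, 4, 6 and 5 of the 11 ranked above both Sham lists at 0, 6 and 24 h, beside 22.7%, 26.2% and 25%, and 0, 1 and 1 below, beside 11%, 13.6% and 13.3%. The median normal score difference from Sham over all 4735 regions was 0.09, 0.11 and 0.09 at the 3 times. With ranks among lists cut to equal length, 2 of 10 (Traf3 and Traf6 region 1) kept the pattern, beside 4.69% of all regions, and without Sham replicate 2 it was 8 of 11, beside 26%. In Traf3 and Traf6 region 1 the peaks of all 8 lists share a stretch, while in Tlr3 and Tab3 region 1 those of 7 do.

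The largest rises in normal score from Sham to MCAO/R-24 h among the 11 were 1.14 ± 0.46 (SE) in Tlr3 region 1, 0.97 ± 0.34 in Traf3 region 1 and 0.82 ± 0.34 in Traf6 region 1, with limma adjusted p of 0.60, 0.51 and 0.60. Jak1 region 1 fell by 0.69 ± 0.25 (adjusted p = 0.535). Il6st region 1 moved by 0.06 ± 0.26. In a fit to the 5835 regions in all 4 lists of Sham and MCAO/R-24 h alone, limma again called 0 (0%). An unadjusted limma p under 0.05 was found in 416 of them, among them 5 of the 17 in these genes. Il1r1 region 1 rose by 1.74 ± 0.37 (adjusted p = 0.568) and Tlr7 region 1 by 1.27 ± 0.51 (adjusted p = 0.687). Stat2 region 1 rose by 1.26 ± 0.66 (adjusted p = 0.708) and Il6ra region 1 by 1.15 ± 0.36 (adjusted p = 0.631). None of these differences was past the threshold of 0.05, and those of Tlr3 and Il1r1 region 1 set peaks at different places of a region against each other.

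The peaks of these genes lay where m6A usually lies. Over the 8 lists, 51.5% ± 5.32 (SD, n = 8 lists) had their middle in coding sequence, 44.6% ± 4.85 in the 3′ UTR and 2.91% ± 2.34 in the 5′ UTR, where the peaks of all protein-coding genes had 56.8%, 35.3% and 5.35%. Within 200 nt of the stop codon were 22.8% ± 2.35 of the peaks, against 20.4%. The share in the 3′ UTR ran from 37.7% to 51.1% over the lists and was above that of all protein-coding genes, 33.8% to 37.3%, in every list. The lists of 47 to 89 peaks leave these shares imprecise, and 5 genes (Tab2, Il6st, Tab3, Jak2 and Tlr3) held 38.9% of the peaks. The distant 3′ UTR regions in the stop codon profile were Traf6 region 2 and Map3k7 regions 3 and 4, at 3365, 3491 and 3715 nt past the stop codon.

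**Figure D5:**
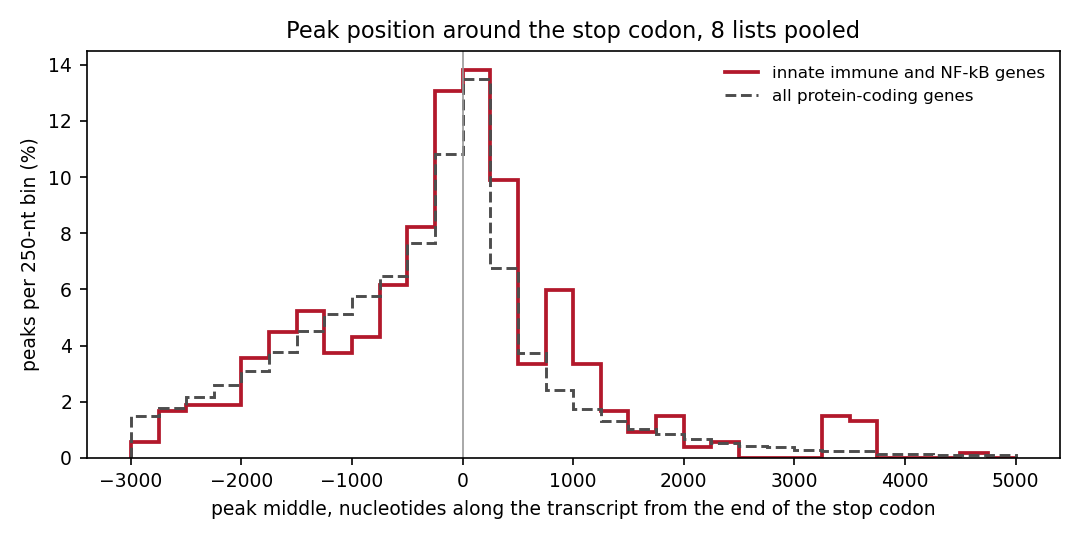
Percent of peaks per bin of transcript distance (nt) between the middle of a peak and the stop codon, for the 58 innate immune and NF-kB genes (solid) and all protein-coding genes (dashed), with the 8 lists pooled. Both profiles peak at the stop codon, and the small rise past 3000 nt holds the distant 3′ UTR regions of Traf6 and Map3k7.

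Of 59 other genes of the same pathways, 35 had a peak in at least 1 list and 10 in all 8. Their per-list share ran from 27.1% in Sham replicate 1 to 42.4% in MCAO/R-24 h replicate 2. At the gene level 0, 2 and 3 of the 35 were gained at 0, 6 and 24 h, and 0, 0 and 1 lost. The gained genes were Cd14, the co-receptor of TLR4, at 6 and 24 h, Ptgs2, the inducible cyclooxygenase, at 6 h, and Tirap, the bridging adaptor to MyD88, with Irf9, a transcription factor of the interferon response, at 24 h. The gene lost at 24 h was Il33, an alarmin cytokine. These shares of the 35 stand against the same backgrounds as above.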

How the data were processed

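Reads were trimmed (Trim Galore) and aligned to GRCm39 (HISAT2) by the authors, who kept uniquely mapped reads (SAMtools) and took as peaks what exomePeak2 passed at p = 0.05 and a log2 fold change of 0.5. The value deposited for each peak is a score whose scale is not given in the sources used here, so it was used only as a rank within a list. The methods give fragments of about 100 nt and the sample records of about 200 nt. The lists hold no counts, so depth is unknown and precision comes from the 2 replicates. Whether the libraries kept strand is not given in the sources used here, and the strand of each peak was taken as listed. Input libraries (8) were not analysed here.

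A peak, deposited as 1 block with its introns, was given to the gene with the most exonic overlap (at least 1 nt) on its strand in GENCODE M39. Peaks sharing at least 1 exonic base were joined into regions, numbered within a gene from the one in the most lists. A region's percentile is that of its highest-scoring peak. Ranks were tested with limma 3.58.1 (R 4.3.3) on all 8 libraries without covariates, with Benjamini-Hochberg adjustment over all regions tested, and the script was tested on simulated data. All else was done in Python 3.11.15 (numpy 2.4.6, figures with matplotlib 3.10.9). The 58 genes, the gene lists and the comparisons were chosen with earlier results of these data known. Described one by one were genes listed in all 8 libraries and genes with a gained or lost region or call; the others are given by counts. The alternatives were leaving out each library, equal numbers of peaks per list, the higher-scoring 50% of each list, other rules of overlap, joining, transcript and placement, quantile-normalised log2 scores, a replicate block, and regions in the 4 lists of a pair of groups.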

Additional observations from a re-analysis of the deposited data

How the results depend on the processing

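Taking the higher-scoring 50% of each list lowered the genes with a peak in any list from 41 to 27, in all 8 from 12 to 7, per list from 26.3 to 15.4, and in both lists of Sham, 0, 6 and 24 h to 9, 11, 12 and 15. It left 1 gene gained at 0 h, 1, 0 and 1 lost at 0, 6 and 24 h, 2, 1 and 3 regions gained and 1, 0 and 2 lost. Equal numbers of peaks per list left 1 gene gained at 0 h, 5 regions gained and 2 lost at 6 h, and 2 regions with every MCAO/R list ranked above both Sham lists, a count whose alternatives were chosen after seeing the data. Leaving out 1 list, which by construction loosens the rule, gave 5 to 10, 2 to 7 and 5 to 7 genes gained at 0, 6 and 24 h, and 2 to 5, 1 to 2 and 2 to 5 lost. Regions gained ranged over 9 to 40, 9 to 36 and 10 to 33, with the highest counts without replicate 1, replicate 2 and replicate 1 of the time itself, and regions lost over 3 to 15, 2 to 11 and 5 to 12, highest without Sham replicate 1 (and, at 24 h, equally without Sham replicate 2). For gained and lost calls, the shares over all genes and all regions under these alternatives are not given here. The backgrounds of the full lists do not apply to these counts. The regions with every MCAO/R list above Sham were 4 to 8 of those tested, 8 without Sham replicate 2, where 26% of all regions had that order (7.9% to 16.5% with another list left out). limma called 0 to 1 regions at 24 h, the 1 (not in these genes) without Sham replicate 2 or MCAO/R-24 h replicate 1, and 0 under every other alternative run. Between same-numbered replicates the correlations of deviations were small and positive, 0.041 to 0.084, which does not show whether these replicates were handled together. The fit with the replicate block called 0 regions. The shares of peaks by transcript part stayed within the spread between lists under every alternative run. The lists hold no counts, so what depth limits cannot be stated.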
